A study of Mus musculus with 12 samples.

Results

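The genes described here are 33 transcripts that rise in astrocytes after injury or inflammation. They were taken by symbol from a published classification of reactive astrocyte genes, and all 33 were present among the 52550 features of the count table. The set has 13 pan-reactive genes, 9 A1 genes and 11 A2 genes. Members were picked by name and not by a rule on measured values, but with earlier results of these data known. Of the 33, 24 passed the filter on low counts and could be tested: 10 pan-reactive, 7 A1 and 7 A2 genes. The other 9 were too low to test and are given below as read counts.

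The samples were ribosome-bound RNA from slices of somatosensory cortex of Fmr1-/y Aldh1l1-TRAP mice (Fmr1 knockout) and Fmr1+/y Aldh1l1-TRAP mice (wild type), all on an FVB/C57 background at postnatal day 40. In translating ribosome affinity purification (TRAP), a ribosomal protein tagged with eGFP is made under the promoter of a cell type, here the astrocyte gene Aldh1l1, and ribosomes are pulled down with antibodies to eGFP. Both genotypes carried the TRAP transgene, the labels name no treatment or injury, and each genotype had 3 libraries (14, 16 and 18 for the knockout, 13, 15 and 17 for the wild type), each deposited as 2 entries that were summed. Whether the 6 libraries are 6 animals is not stated in the labels. The p-values therefore cover only the spread between these libraries, which may be technical. The data also hold RNA of cells other than astrocytes, and in bulk samples fewer cells of a type and less RNA per cell cannot be told apart.

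When the brain is injured, infected or deprived of blood, astrocytes enlarge, build up intermediate filaments and switch on genes for secreted protease inhibitors, cytokine receptors and matrix receptors. The pan-reactive genes were described as rising after both systemic lipopolysaccharide and arterial occlusion, the A1 genes mainly after lipopolysaccharide and the A2 genes mainly after occlusion. Cytokines of the interleukin-6 family act through STAT3 on many of these genes, and tumour necrosis factor and interleukin-1 act through NF-kB. Interferons act through an element of their own in the promoters of the genes they induce. The classes summarise responses of mouse astrocytes in bulk and many of the genes are also made by microglia, endothelial cells or neurons.

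Libraries had 10953958 to 22397202 counts, and features that collect ribosomal RNA reads held 35.6% and 45.1% of them in knockout libraries 14 and 16 against 0.892% to 7.45% in the other 4. After scaling, a level of 1 CPM (the count scaled to library size by TMM) stood for 7.10 reads in library 16, 12.3 in library 14 and 23.5 to 26.1 in the others. Fmr1 was at 1.32 to 4.32 CPM in knockout and 31.6 to 38.4 CPM in wild-type libraries, lower in each library labelled knockout. The 16 homeostatic astrocyte genes, all tested and none at 0 in any library, summed to 29744 to 35895 CPM in the knockout and 30164 to 37220.3 CPM in the wild type. The titles carry a number pair such as 5-24 that reads like a month and day but is not explained by the labels. Its leading number is 5 for libraries 13, 14 and 16 and 6 for libraries 15, 17 and 18.

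Promoter stretches of 5 members are shown because they hold binding elements of the factors named above within the 250 bases before the transcription start. They cover all 3 classes, and the genes' values follow below. The sequences are from RefSeq (GRCm38.p6), where 28 of the 33 members matched, and run 5′ to 3′ on the gene's own strand with the elements in capitals. The stretches are chr3:142620553-142620622 (plus strand) for Gbp2, chr5:92348950-92349109 (minus strand) for Cxcl10, chr17:34198070-34198129 (plus strand) for Psmb8, chr5:7960337-7960386 (plus strand) for Steap4 and chr6:135362781-135362920 (plus strand) for Emp1. Emp1 has 2 listed starts, and the upstream one used here, at 135362931, lies inside the gene's span in the gene table, which begins at 135362550.
Gbp2: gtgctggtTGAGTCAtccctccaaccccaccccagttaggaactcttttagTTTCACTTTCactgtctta
Cxcl10: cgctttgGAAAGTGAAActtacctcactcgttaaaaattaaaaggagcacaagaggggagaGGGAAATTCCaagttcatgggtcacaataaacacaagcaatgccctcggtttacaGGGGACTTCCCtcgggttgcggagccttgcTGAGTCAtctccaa
Psmb8: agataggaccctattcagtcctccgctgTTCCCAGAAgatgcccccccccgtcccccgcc
Steap4: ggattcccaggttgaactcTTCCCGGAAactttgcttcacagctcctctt
Emp1: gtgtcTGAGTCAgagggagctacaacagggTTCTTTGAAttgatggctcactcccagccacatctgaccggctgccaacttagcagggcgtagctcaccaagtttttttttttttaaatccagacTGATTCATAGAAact
The capitals mark the interferon-stimulated response element, the STAT element (TTCNNNGAA), the AP-1 element (TGANTCA) and the NF-kB element, each searched on both strands. In Gbp2 the interferon element begins 59 bases and the AP-1 element 102 bases before the start. In Cxcl10 the interferon element begins 213 bases before the start, followed by NF-kB elements from 159 and from 104 and 103 bases (the last pair overlaps) and an AP-1 element at 74 bases. Psmb8 and Steap4 show a STAT element at 97 and 116 bases. Steap4 also has NF-kB elements at 250 and 226 bases, outside the stretch printed. Emp1 has AP-1 elements at 145 and 25 bases and STAT elements at 120 and 22 bases, and the pair nearest the start overlaps. Of all 32851 promoters, 2.98% held the interferon element in the same 250 bases, 7.02% the STAT element, 6.75% the AP-1 element and 7.25% the NF-kB element. Each of the 4 elements was found in 5 of the 28 matched members. These 28 have 37 listed promoters and 1 match sufficed, whereas the shares above are per promoter. A match describes letters and is no evidence that a factor was bound.

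No member passed the threshold (adjusted p of 0.05) between knockout and wild type. It was passed by 0 of 24 members and by 0 of 14990 genes (0% of all tested) in edgeR's quasi-likelihood test. In that test every member had an adjusted p of 1.00. An unadjusted p under 0.05 was reached by 0 members and by 265 genes (1.77% of all tested), 0.734% higher and 1.03% lower in the knockout. DESeq2 called 0 of the 24 members and 8 of 14981 genes (0.0534%), with 1 member (Aspg) and 274 genes (1.83%) at an unadjusted p under 0.05. Limma voom called 0 members and 0 genes (0%), with 1 member (Aspg) and 300 genes (2%) at an unadjusted p under 0.05. In the authors' deposited table, which lists 14843 features and 23 of the members, 85 features (0.573%) but 0 members had an adjusted p under 0.05. Its unadjusted p was under 0.05 for 3 members against 1027 features (6.92%). In the authors' deposited table these were Cd44 at a log2 fold change of -0.59, Cp at -0.57 and Aspg at 0.67. That table holds values for the 12 entries, and its test is not stated. Whether it counted the 2 entries of a library as separate samples is therefore not known, which limits its p-values.

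Of the 24 tested members, 17 had an estimate below and 7 above 0, beside 7550 and 7440 of all tested genes. Their log2 fold changes ran from -0.72 to 0.67 with a median of -0.12, and the median of all tested genes was -0.0019. By class the median was -0.33 for the pan-reactive (7 lower, 3 higher), -0.051 for the A1 (6 lower, 1 higher) and -0.030 for the A2 genes (4 lower, 3 higher). The pan-reactive median came to -0.020 without wild-type library 17 and to -0.085 without knockout library 18. The A2 median was -0.28 without knockout library 14. Leaving out any other library put it above 0, from 0.041 without wild-type library 15 to 0.32 without knockout library 16. The A1 median lay further from 0 whichever library was left out, between -0.48 without knockout library 14 and -0.19 without knockout library 16. Leaving out 1 library moved the estimate by over 1.5 times, or turned its sign, in 23 of the 24 members, Cp being the exception. Each knockout library lay below each wild-type library in 3 members (Cp, Ggta1 and Gbp2), where 3.25% of all tested genes do, and above in 0 members, where 2.95% do. That makes 3 of 24 in either direction, beside 6.2% of all tested genes. The members that passed the filter are not all members, and no test was made over the list.

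**Figure D1:**
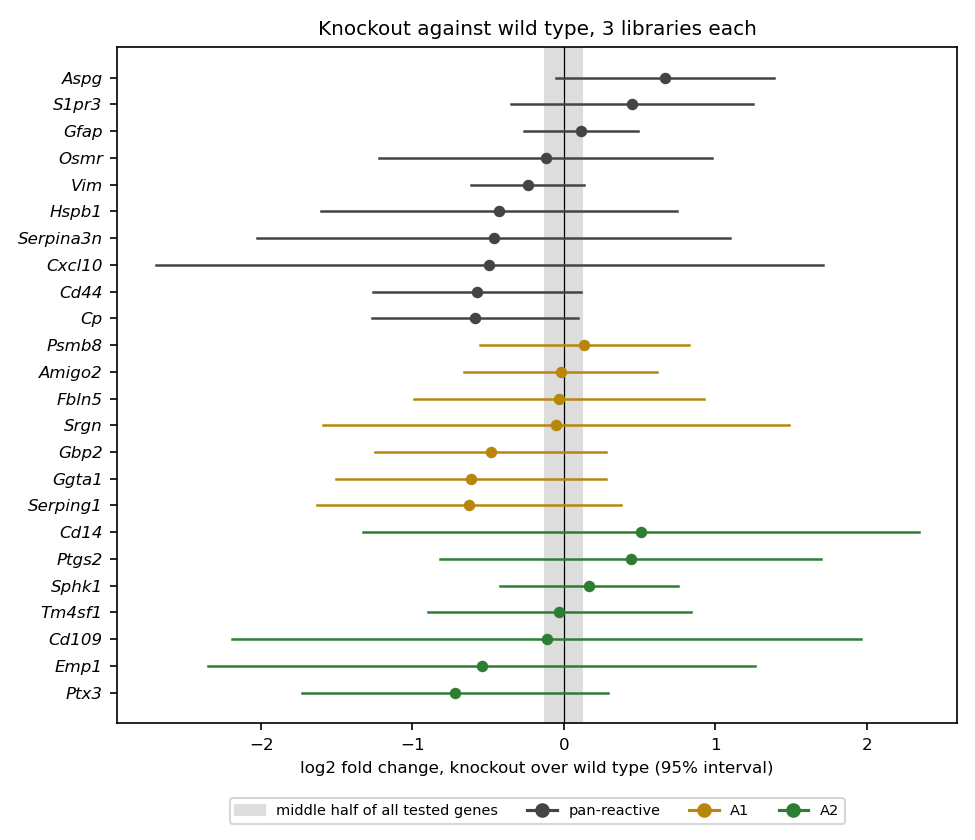
Log2 fold change of each of the 24 tested members, knockout over wild type, with its 95% interval from edgeR's quasi-likelihood fit (3 libraries each). Points are coloured by class and the grey band spans the interquartile range of all tested genes. All 24 intervals include 0.

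Gfap and Vim encode the intermediate filament proteins whose build-up defines reactive astrocytes under the microscope. Gfap, on chromosome 11 from 102887336 to 102897200 (mm10), stood at 2690.4, 2415 and 2201 CPM in libraries 14, 16 and 18 (knockout) against 2564, 1886 and 2308 CPM in libraries 13, 15 and 17 (wild type). The genotypes overlapped, since wild-type library 13 lay above 2 of the knockout libraries. The means were 2435 ± 245 CPM (knockout, SD, n = 3) against 2252 ± 342 CPM (wild type, SD, n = 3), a 1.08-fold ratio with a 95% interval of 0.832 to 1.40 (exact permutation p = 0.5, where 3 against 3 cannot go below 0.1). The intervals of Gfap and Vim were the narrowest of the 24. The Gfap estimate was -0.0085 on the log2 scale without knockout libraries 14 and 16. It made up 90.5% to 93.6% of the summed CPM of the 33 members in every library.

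Vim, which encodes vimentin, stood at 65.1, 49.4 and 63.3 CPM in libraries 14, 16 and 18 (knockout) against 59.7, 73.9 and 76.7 CPM in libraries 13, 15 and 17 (wild type) (log2 fold change -0.24, SE 0.16, 95% interval -0.62 to 0.14). Here 2 wild-type libraries lay above all knockout libraries and the third, library 13, lay below 2 of them. The ratio of Gfap to Vim counts within a library, which does not depend on scaling, was 41.3, 48.9 and 34.8 in the knockout and 42.9, 25.5 and 30.1 in the wild type. These ratios overlapped, with library 13 inside the knockout range. Gfap relative to the sum of the 16 homeostatic astrocyte genes was 8.21, 6.73 and 7.40% in the knockout and 6.89, 5.74 and 7.65% in the wild type, again overlapping.

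**Figure D2:**
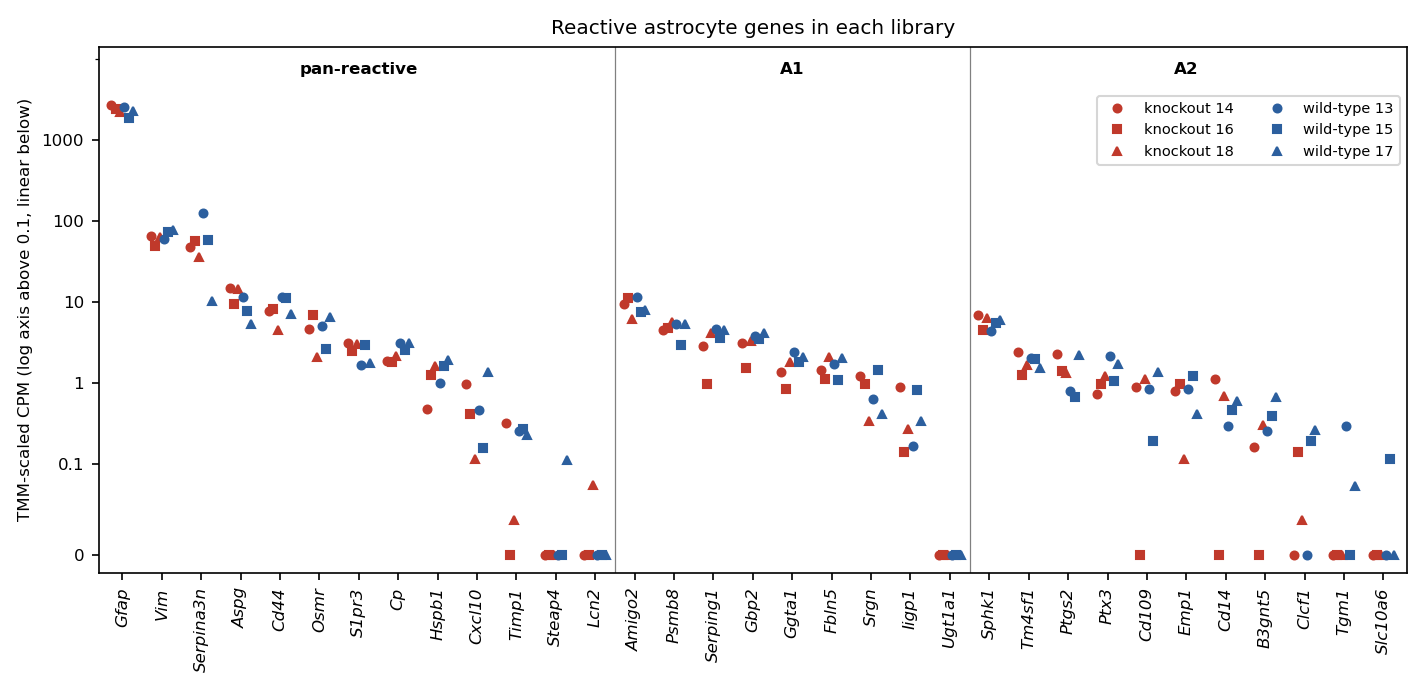
TMM-scaled CPM of all 33 members in each of the 6 libraries, by class and ordered by mean level (log axis above 0.1 CPM, linear below). Gfap is the highest member in every library, and Vim and Serpina3n stand above most others. CPM is not corrected for transcript length.

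Among the 4 members that averaged over 10 CPM, Serpina3n differed most between libraries of 1 genotype. It encodes a secreted serine protease inhibitor and lies on chromosome 12 from 104406646 to 104414334 (mm10) in a cluster of closely related Serpina3 genes, so that its count is uncertain where reads are shared. It measured 47.8, 57.2 and 35.9 CPM in libraries 14, 16 and 18 (knockout) against 125, 58.5 and 10.3 CPM in libraries 13, 15 and 17 (wild type). The wild-type libraries alone spanned a 12.1-fold range that enclosed all 3 knockout libraries, whose own range was 1.59-fold. Of 9349 tested genes with a mean over 10 CPM, 51 had a wild-type range at least as wide, a rank looked up after its values were seen. The within-genotype SD of log2 CPM was 1.32 for Serpina3n against a median of 0.20 for tested genes within 2-fold of its level.

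The direction of Serpina3n between genotypes followed single libraries. The fitted log2 fold change was -0.46 (SE 0.68, 95% interval -2.02 to 1.10), but 0.44 without wild-type library 13 and -0.97 without wild-type library 17. The difference of mean log2 values had the opposite sign to the fit, at 0.13, and limma voom gave 0.099. The difference was -1.25 within the title number 5 and 0.55 within 6. In wild-type libraries 13, 15 and 17 the summed homeostatic astrocyte genes stood at 37220.3, 32877 and 30164 CPM and the summed neuron markers at 1271, 2196 and 2408 CPM. The homeostatic sum falls and the neuron sum rises in the order in which Serpina3n falls, and their part in it was not tested.

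Cd44, a receptor for hyaluronan in the extracellular matrix, had an estimate below 0 in every fit. It stood at 7.75, 8.17 and 4.604 CPM in libraries 14, 16 and 18 (knockout) against 11.7, 11.4 and 7.08 CPM in libraries 13, 15 and 17 (wild type). The wild-type libraries 13 and 15 were above all knockout libraries and wild-type library 17 lay among them. The means were 6.84 ± 1.95 CPM (knockout, SD, n = 3) against 10.04 ± 2.57 CPM (wild type, SD, n = 3) (log2 fold change -0.57, SE 0.30, 95% interval -1.26 to 0.11). With the leading title number as a covariate the log2 fold change was -0.78, and with the share of ribosomal RNA as covariate -1.07. That share is large in knockout libraries 14 and 16. Without these libraries, which leaves library 18 as the only knockout, the log2 fold change was -1.10. It was -0.34 without knockout library 18, -0.45 without wild-type library 13 and -0.46 without wild-type library 15. Its smallest adjusted p over 16 alternatives was 0.860, and the largest was 1.00.

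Aspg, which encodes an asparaginase, had the largest positive estimate of the tested members. It measured 15.2, 9.43 and 14.6 CPM in libraries 14, 16 and 18 (knockout) against 11.7, 7.82 and 5.40 CPM in libraries 13, 15 and 17 (wild type). Knockout libraries 14 and 18 were above every wild-type library, while knockout library 16 lay below wild-type library 13. The means were 13.1 ± 3.17 CPM (knockout, SD, n = 3) against 8.31 ± 3.19 CPM (wild type, SD, n = 3) (log2 fold change 0.67, SE 0.31, 95% interval -0.055 to 1.39). The difference of Aspg was 0.049 within the title number 5 and 1.16 within 6. Its adjusted p (edgeR, DESeq2 or limma) lay between 0.867 and 1.00 over the alternatives.

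Cp encodes ceruloplasmin, a copper-carrying ferroxidase that astrocytes hold at their surface. It lies on chromosome 3 from 19956933 to 20009750 (mm10) and stood at 1.88, 1.83 and 2.17 CPM in libraries 14, 16 and 18 (knockout) against 3.11, 2.61 and 3.18 CPM in libraries 13, 15 and 17 (wild type). All 3 knockout libraries were below all 3 wild-type libraries. The means were 1.96 ± 0.182 CPM (knockout, SD, n = 3) against 2.96 ± 0.311 CPM (wild type, SD, n = 3) (log2 fold change -0.59, SE 0.30, 95% interval -1.27 to 0.094; exact permutation p = 0.1, the smallest possible). Cp also varied little within genotypes, with a within-genotype SD of 0.12 on the log2 scale against a median of 0.43 for genes of like level. Of 2295 such genes 0.96% had a smaller SD. At 13 to 83 reads a library, counting error limits what so small an SD shows. The estimate was -0.91 from the leading entry of each library alone and -0.43 without knockout libraries 14 and 16. The count of Cp was 23, 13 and 56 reads in the knockout and 73, 66 and 83 in the wild type, and edgeR gave it an adjusted p of 1.00.

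**Figure D3:**
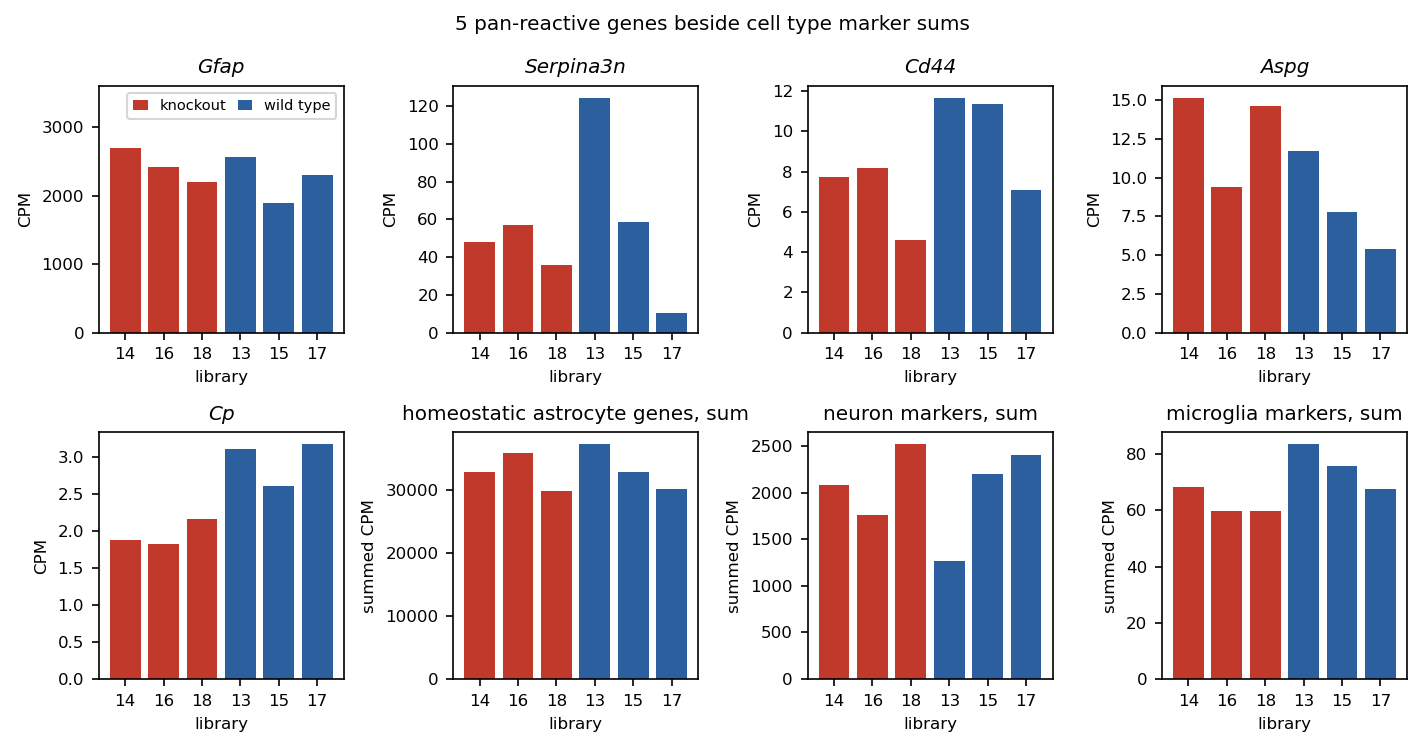
CPM of Gfap, Serpina3n, Cd44, Aspg and Cp and the summed CPM of homeostatic astrocyte genes, neuron markers and microglia markers in each library (red, knockout; blue, wild type; 1 bar per library, no error bars). Serpina3n runs from 10.3 to 125 CPM among wild-type libraries, and Cp is the 1 gene shown whose genotypes do not overlap.

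The other receptor genes of the pan-reactive class had estimates on either side of 0. S1pr3, a receptor for sphingosine-1-phosphate, measured 3.18, 2.53 and 3.02 CPM (knockout) against 1.66, 3.002 and 1.76 CPM (wild type) (log2 fold change 0.45, SE 0.35, 95% interval -0.35 to 1.25). Knockout libraries 14 and 18 were above all wild-type libraries, and library 16 was below wild-type library 15. Osmr, the oncostatin M receptor that signals to STAT3, measured 4.65, 6.90 and 2.13 CPM (knockout) against 5.07, 2.69 and 6.66 CPM (wild type) (log2 fold change -0.12, SE 0.48, 95% interval -1.22 to 0.98). Osmr ranged 3.24-fold among knockout libraries and turned upward without knockout library 18 or wild-type library 17 (-0.53 to 0.25 on leaving out each library in turn).

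The 5 remaining pan-reactive genes were low in every library. Hspb1, a small heat shock protein gene, measured 0.489, 1.27 and 1.62 CPM (knockout) against 1.02, 1.66 and 1.95 CPM (wild type) (log2 fold change -0.43, SE 0.51, 95% interval -1.61 to 0.75). Cxcl10, an interferon-induced chemokine whose promoter is printed above, measured 0.979, 0.422 and 0.116 CPM (knockout) against 0.468, 0.158 and 1.38 CPM (wild type). Library 17 was the highest wild-type and library 14 the highest knockout library, and the estimate of -0.49 carried an interval from -2.70 to 1.71. Timp1, which encodes a metalloproteinase inhibitor, had 4, 0 and 1 reads in the knockout and 6, 7 and 6 in the wild type. Scaled to library size, Timp1 overlapped, at 0.326, 0 and 0.0387 CPM (knockout) against 0.255, 0.276 and 0.230 CPM (wild type). Lcn2, the lipocalin often used as the marker of strong astrocyte reactivity, had 0, 0 and 2 reads in the knockout and 0, 0 and 0 in the wild type. Steap4, a metalloreductase gene, had 0, 0 and 0 reads in the knockout and 0, 0 and 3 in the wild type. Counts of 0 allow up to 0.422 CPM in library 16, 0.245 CPM in library 14 and 0.115 to 0.128 CPM in the other 4, counting error only (3 reads).

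Among the A1 genes, Ggta1, Gbp2 and Serping1 had the lowest estimates. Gbp2, an interferon-induced GTPase gene on chromosome 3 from 142620663 to 142638008 (mm10) with related copies beside it that could share reads, stood at 3.18, 1.55 and 3.33 CPM in libraries 14, 16 and 18 (knockout) against 3.88, 3.55 and 4.13 CPM in libraries 13, 15 and 17 (wild type). All knockout libraries were below all wild-type libraries, but library 18 stood only 3.33 CPM against 3.55 CPM in wild-type library 15, and library 16, the lowest, rests on 11 reads (log2 fold change -0.48, SE 0.33, 95% interval -1.25 to 0.28). Ggta1 encodes the enzyme that makes the alpha-gal epitope. It measured 1.39, 0.845 and 1.82 CPM (knockout) against 2.47, 1.86 and 2.10 CPM (wild type) (log2 fold change -0.61, SE 0.39, 95% interval -1.51 to 0.28), again without overlap, with 6 reads in library 16 and only a narrow gap between knockout library 18 and wild-type library 15. Serping1, the gene of the complement C1 inhibitor, measured 2.85, 0.986 and 4.14 CPM (knockout) against 4.73, 3.63 and 4.55 CPM (wild type) (log2 fold change -0.63, SE 0.44, 95% interval -1.63 to 0.38), where knockout library 18 lay within the wild-type range.

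These A1 estimates were larger in the libraries whose title number is 5. The difference of Gbp2 was -0.68 within the title number 5 and -0.20 within 6, that of Ggta1 -0.95 within the title number 5 and -0.12 within 6 and that of Serping1 -1.30 within the title number 5 and 0.024 within 6. The within-5 values rest on knockout libraries 14 and 16, which carry the large ribosomal RNA share, against wild-type library 13. Those within 6 rest on 1 knockout library. Over all 24 tested members, 14 had the same sign within both numbers (9 lower and 5 higher), where 48.7% of all tested genes did. Without libraries 14 and 16 the log2 fold change was -0.19 for Gbp2, -0.21 for Ggta1 and -0.031 for Serping1. From the leading entry of each library alone, Ggta1 came to -0.093.

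The other A1 genes lay near 0 or were too low to compare. Psmb8, an immunoproteasome subunit gene induced by interferon, measured 4.49, 4.79 and 5.76 CPM (knockout) against 5.37, 2.96 and 5.43 CPM (wild type) (log2 fold change 0.14, SE 0.30, 95% interval -0.56 to 0.83), so that its 3 knockout libraries fell within the wild-type range or just above it. Amigo2, an adhesion molecule gene, measured 9.62, 11.1 and 6.27 CPM (knockout) against 11.5, 7.58 and 7.997 CPM (wild type) (log2 fold change -0.022, SE 0.28, 95% interval -0.66 to 0.62), with both genotypes spread over the same range. Fbln5, encoding an elastic fibre protein, had a log2 fold change of -0.032 (-0.99 to 0.93) and ran from 1.11 to 2.09 CPM. Srgn, the proteoglycan serglycin of blood-derived and endothelial cells, had one of -0.051 (-1.59 to 1.49) and ran from 0.348 to 1.46 CPM. The interferon-induced GTPase gene Iigp1 had 11, 1 and 7 reads in the knockout and 4, 21 and 9 in the wild type. Ugt1a1, a glucuronosyltransferase gene that shares its last exons with the rest of its family, had 0 reads in all 6 libraries, which allows up to 0.0250 CPM over them together.

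The A2 genes held enzymes and surface proteins at low levels, and none of them separated the genotypes. Sphk1, the kinase that makes sphingosine-1-phosphate and the A2 gene with the most reads, stood at 7.01, 4.51 and 6.34 CPM in libraries 14, 16 and 18 (knockout) against 4.43, 5.57 and 6.05 CPM in libraries 13, 15 and 17 (wild type) (log2 fold change 0.17, SE 0.26, 95% interval -0.42 to 0.75). Ptgs2, the inducible cyclooxygenase COX-2, which neurons also switch on with activity, measured 2.28, 1.41 and 1.35 CPM (knockout) against 0.809, 0.671 and 2.22 CPM (wild type) (log2 fold change 0.44, SE 0.55, 95% interval -0.82 to 1.70). Its wild-type library 17 lay just under the highest knockout library. The estimate of Ptgs2 ran from 0.15 without wild-type library 15 to 1.18 without wild-type library 17. Immediate early genes, none of them a member, stood at a median of 0.86 on the log2 scale (13 of 15 above 0), and their part in the value of Ptgs2 was not tested. Ptx3, a secreted pentraxin gene, had the lowest estimate of the 24 at -0.72 (-1.73 to 0.29), with 0.734, 0.986 and 1.24 CPM (knockout) against 2.17, 1.07 and 1.72 CPM (wild type). Wild-type library 15 lay below the knockout library 18, so the groups overlapped.

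The remaining A2 genes had few reads in at least 1 library. Tm4sf1, a tetraspanin-like gene prominent in endothelium, measured 2.45, 1.27 and 1.70 CPM (knockout) against 2.04, 2.01 and 1.53 CPM (wild type) (log2 fold change -0.030, SE 0.38, 95% interval -0.90 to 0.84). Emp1, an epithelial membrane protein gene whose promoter is printed above, measured 0.816, 0.986 and 0.116 CPM (knockout) against 0.852, 1.22 and 0.421 CPM (wild type), and its estimate of -0.54 (-2.35 to 1.26) was 0.10 without knockout library 18. For Emp1 it was -2.56 with the share of ribosomal RNA as covariate and -2.77 without knockout libraries 14 and 16, which leaves library 18 as the only knockout. Cd109, a surface protein that binds transforming growth factor beta, had 11, 0 and 29 reads in the knockout and 20, 5 and 36 in the wild type (log2 fold change -0.11, -2.19 to 1.96). Cd14, the lipopolysaccharide co-receptor typical of microglia and monocytes, had 14, 0 and 18 reads in the knockout and 7, 12 and 16 in the wild type, with a log2 fold change of 0.51 (-1.33 to 2.34) that turned to -0.11 without knockout library 14. Of the 4 untested A2 genes, the glycosyltransferase gene B3gnt5 had 2, 0 and 8 reads in the knockout and 6, 10 and 18 in the wild type. The cytokine gene Clcf1 had 14 reads in all, the transglutaminase gene Tgm1 9 and the transporter gene Slc10a6 3.

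Mean levels of the 33 members, not corrected for length, spanned a wide range. Gfap alone averaged over 1000 CPM, 3 genes (Vim, Serpina3n and Aspg) averaged 10 to 1000 CPM, 15 averaged 1 to 10 CPM and 13 lay between 0 and 1 CPM, with Ugt1a1 at 0. In 10 members at least 1 library had no read. The 32 members other than Gfap summed to 188, 168 and 165 CPM in the knockout and 262, 197 and 157 CPM in the wild type. Without Serpina3n the sums of the other 31 were 140.1, 111 and 129 and 137, 138 and 146 CPM. With Serpina3n left out, wild-type library 13 no longer had the highest sum. Of the 24 tested members, 15 varied more within genotypes than the median gene of their level.

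Several members are also expressed by microglia. Of 14 microglia markers tested, 12 had a log2 fold change below 0 (median -0.29), and edgeR called 0. Tmem119, Tyrobp and C1qc (named, like Slc2a1 here, after their values were seen) were lower in each knockout library without overlap, 3 of 14 beside 3.25% of all tested genes. C1qc had an unadjusted p under 0.05 on the lower side, 1 of 14 beside 1.03%. The microglia sum over 15 genes was 59.8 to 68.2 CPM in the knockout and 67.4 to 83.5 CPM in the wild type, and 1 of the 15 had no read in some library. The endothelial markers had a median of -0.018 over 10 tested, with summed levels of 73.0 to 103 and 64.2 to 109.7 CPM, of which Slc2a1, a glucose transporter gene that astrocytes also express, held 83.1%. The other 11 endothelial markers summed to 10.4 to 18.5 CPM (knockout) against 12.3 to 18.9 CPM (wild type). The mural and fibroblast markers had a median of 0.046 over 9, with 59.1 to 67.0 and 53.2 to 64.8 CPM. In both of these lists 2 genes had no read in at least 1 library. The part of these cells in the values of Srgn, Cd14, Tm4sf1 and the 3 members without overlap (Gbp2, Ggta1 and Cp) was not tested. The log2 fold changes of Srgn and Tm4sf1 were -0.051 and -0.030, and that of Cd14 was 0.51.

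The homeostatic astrocyte genes gave a reference for the pull-down itself. Of 16 tested, 5 were higher and 11 lower, with a median of -0.011 and a range from -0.12 to 0.23. Neuron markers summed to 1757 to 2519 CPM in the knockout and 1271 to 2408 CPM in the wild type (median log2 fold change 0.10, 9 of 12 higher). Oligodendrocyte lineage markers summed to 627 to 1404 and 675 to 1181 CPM (median 0.078, 8 of 12 higher). The 5 tested blood cell genes were all higher in the knockout by their estimates (median 0.27), with sums of 41.3 to 130.2 and 41.1 to 88.3 CPM. None of these genes passed (edgeR adjusted p of 1.00).

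Upstream of the pan-reactive genes, the interleukin-6 family and STAT3 list had 12 genes tested of 15, 6 higher and 6 lower, with a median of 0.0040. Stat3 itself measured 109, 92.5 and 93.8 CPM (knockout) against 94.9, 91.6 and 89.1 CPM (wild type) (log2 fold change 0.10, SE 0.13, 95% interval -0.20 to 0.40). Il6st, the shared receptor chain gp130, measured 98.9, 103 and 65.5 CPM (knockout) against 96.8, 83.9 and 74.7 CPM (wild type) (log2 fold change 0.065, SE 0.20, 95% interval -0.39 to 0.52). Jak2, a kinase that phosphorylates STAT3, measured 28.3, 32.7 and 26.8 CPM (knockout) against 38.2, 36.6 and 38.6 CPM (wild type), with each knockout library below each wild-type library (log2 fold change -0.37, SE 0.13, 95% interval -0.68 to -0.071). It was the 1 gene of the list at an unadjusted p under 0.05, with an adjusted p of 1.00 from edgeR. Of all tested genes, 1.03% were lower at an unadjusted p under 0.05 and 3.25% were lower without overlap. Lifr, the receptor of leukaemia inhibitory factor, measured 35.2, 33.4 and 27.6 CPM (knockout) against 39.0, 41.8 and 31.8 CPM (wild type) and overlapped.

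The interleukin-1, tumour necrosis factor, Toll-like receptor and NF-kB list had 13 of 18 genes tested, 4 higher and 9 lower (median -0.065), and none had an unadjusted p under 0.05. Il1r1, the interleukin-1 receptor, measured 0.979, 0.563 and 0.580 CPM (knockout) against 1.06, 1.97 and 1.15 CPM (wild type) (log2 fold change -0.97, SE 0.47, 95% interval -2.06 to 0.11), and each knockout library was below each wild-type library by a small margin. Tlr4, the lipopolysaccharide receptor, measured 2.37, 1.27 and 1.01 CPM (knockout) against 3.75, 1.94 and 2.56 CPM (wild type) and overlapped (log2 fold change -0.84, SE 0.45, 95% interval -1.87 to 0.19). Tnfrsf1a, the main tumour necrosis factor receptor, measured 14.5, 14.2 and 10.6 CPM (knockout) against 18.4, 15.6 and 14.4 CPM (wild type) and also overlapped (log2 fold change -0.31, SE 0.19, 95% interval -0.75 to 0.14). Ligands of the list had few reads, with 0 for Tnf, 14 for Il1a and 21 for Il1b in all 6 libraries together. Ligands of the interleukin-6 family were uneven: Il6 had 4 reads and Osm 0, while Lif had 236 and Cntf 481. These ligands were named after their counts were seen.

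The interferon list had 19 of 20 genes tested, 6 higher and 13 lower, with a median of -0.11 and none at an unadjusted p under 0.05. Psmb10, the immunoproteasome subunit that assembles with the product of Psmb8, measured 52.5, 51.7 and 52.0 CPM (knockout) against 51.2, 39.7 and 39.1 CPM (wild type), with each knockout library above each wild-type library (log2 fold change 0.26, SE 0.14, 95% interval -0.068 to 0.60). Tap1, a peptide transporter of the same pathway, measured 3.43, 3.802 and 2.24 CPM (knockout) against 2.21, 2.45 and 2.26 CPM (wild type) and overlapped. The estimates lay on both sides of 0, with Psmb8, Psmb10 and Tap1 above and Gbp2 below. Also below were Psmb9, another immunoproteasome subunit gene, at a log2 fold change of -0.54 and B2m at -0.10. Both overlapped between genotypes and were named after their values were seen.

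The enzymes and receptors of sphingosine-1-phosphate and prostaglandins, the pathways of S1pr3, Sphk1 and Ptgs2, had 5 higher and 7 lower estimates of 12 (median -0.074). Sphk2, the other sphingosine kinase, measured 40.8, 41.1 and 41.9 CPM (knockout) against 36.9, 30.2 and 30.8 CPM (wild type), with no overlap (log2 fold change 0.34, SE 0.13, 95% interval 0.035 to 0.64), and had an adjusted p of 1.00 from edgeR. Ptges2, a prostaglandin E synthase, measured 59.1, 50.1 and 59.3 CPM (knockout) against 54.0, 48.3 and 49.4 CPM (wild type). Further reactive and filament genes had 6 higher and 5 lower of 11 tested (median 0.041). Maob, the monoamine oxidase that astrocytes raise with age and injury, measured 69.8, 85.8 and 75.1 CPM (knockout) against 93.3, 87.2 and 98.1 CPM (wild type), each knockout library below each wild-type library (log2 fold change -0.27, SE 0.14, 95% interval -0.59 to 0.040), and the fatty acid binding protein gene Fabp7 measured 765, 517 and 532 CPM (knockout) against 562, 419.5 and 450.2 CPM (wild type) (log2 fold change 0.34, SE 0.20, 95% interval -0.11 to 0.80).

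**Figure D4:**
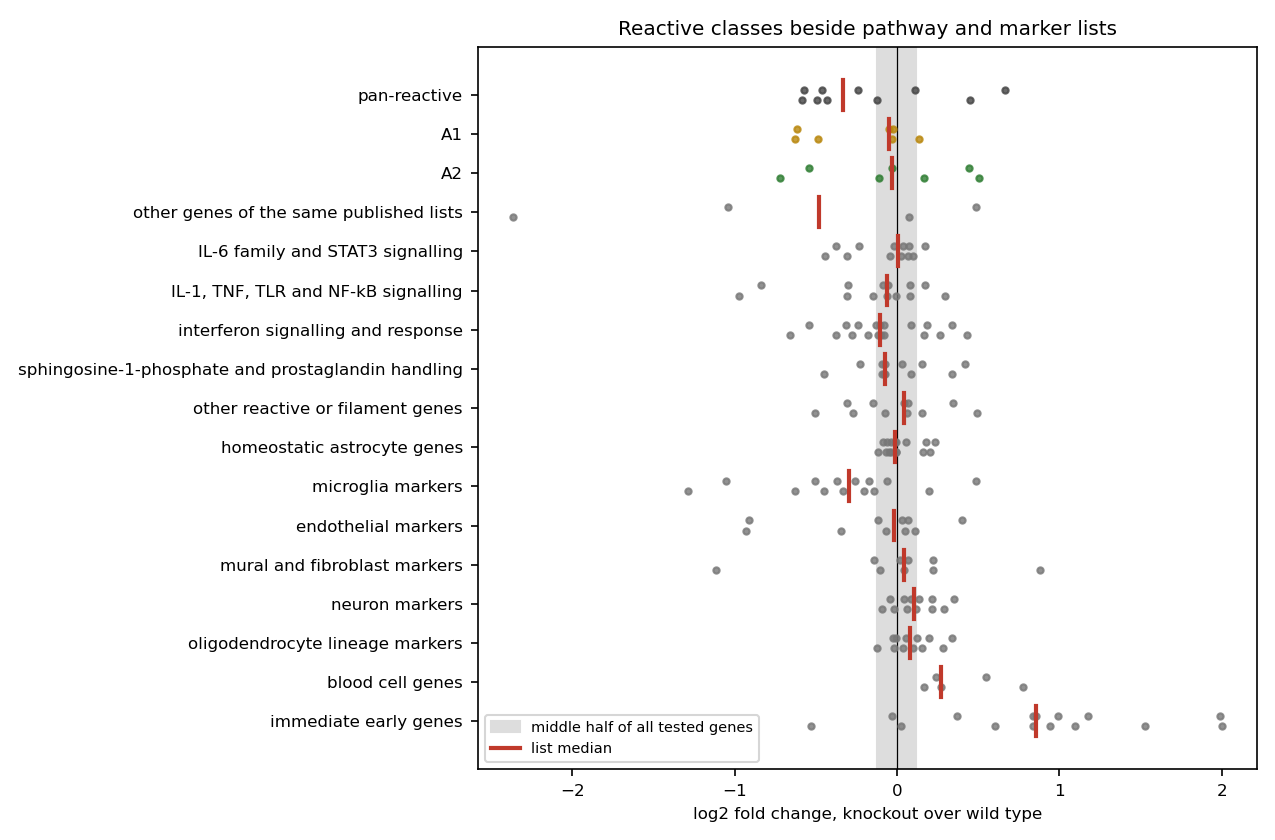
Log2 fold changes of the tested genes of the 3 reactive classes and of each pathway and marker list, knockout over wild type (1 point per gene; red bar, list median; grey band, interquartile range of all tested genes). The immediate early genes have the highest median at 0.86, and the pan-reactive, A1 and A2 medians are -0.33, -0.05 and -0.03.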

How the data were processed

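Ribosome-bound RNA was depleted of ribosomal RNA, made into stranded libraries and read in pairs, per the labels' protocols. The deposited expected counts are RSEM estimates per gene, per the file headers, and the submitters' processing notes name STAR 2.5.3a, RSEM 1.3.0, edgeR and mm10. Neither the strand setting nor the annotation release is stated in these sources. The authors' deposited table gives log2 fold changes, mean log2 CPM, p-values and adjusted p-values, and a scaled signal per entry that was not used.

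The 2 entries of each library differed by about the sampling noise (median chi-square per feature 0.467 to 0.495 over features with at least 20 counts) and were summed and rounded. Genes were filtered with filterByExpr (14990 kept), scaled by TMM and tested by edgeR 4.0.16's quasi-likelihood F test with Benjamini-Hochberg adjustment over all genes (4 residual and 8.24 total degrees of freedom), under R 4.3.3 with limma 3.58.1 and DESeq2 1.42.0. The code was tested on simulated data. SEs come from the F statistic, and differences of mean log2 values use a prior count of 2. CPM of untested genes uses the same library sizes.

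Members, lists and the rule for named genes were chosen with earlier results of these data known. The rule names all members, Fmr1, the 2 genes of smallest p of each pathway list, and Il6st, Stat3, Tnfrsf1a and Il1r1. A further gene that the rule names is not reported here. Alternatives were other scaling, tests and filters, 2 covariates, leaving out the ribosomal RNA features (CT010467.1, Lars2 and AY036118), using 1 entry per library, and leaving out libraries.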

Additional observations from a re-analysis of the deposited data

How the results depend on the processing

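No member passed an adjusted p of 0.05 under any of the 16 alternatives run (smallest adjusted p 0.860). Genes called over the whole table were 8 with DESeq2, 6 without a filter, 1 with ribosomal RNA share as covariate and 0 to 2 on leaving out each library. The cause was not tested. No paired analysis was possible because the groups share no replicate numbers. On leaving out each library the median log2 fold change ran from -0.45 to -0.020 for the pan-reactive, -0.48 to -0.19 for the A1 and -0.28 to 0.32 for the A2 genes. The A1 median was -0.25 with CPM over 1 in at least 3 libraries (fewer genes) and -0.30 with the title number as a covariate. The A2 median was -0.51 without a filter (more low genes) and 0.28 with ribosomal RNA share as covariate.

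Signs turned as follows. Limma voom gave 0.099 for Serpina3n and 0.093 for Fbln5. The title number as a covariate gave 0.0157 for Fbln5, and the ribosomal RNA share 0.38 for Fbln5 and 0.74 for Cd109. The leading entry alone gave 0.27 for Cd109. Without libraries 14 and 16 Gfap came to -0.00850, Hspb1 to 0.0966, Fbln5 to 0.37 and Cd109 to 0.49. Leaving out each library turned the sign of 11 members, with ranges of -0.97 to 0.44 (Serpina3n), -1.58 to 0.61 (Cxcl10), -0.53 to 0.25 (Osmr), -0.32 to 0.17 (Fbln5), -0.090 to 0.28 (Psmb8), -0.48 to 0.64 (Srgn), -0.19 to 0.20 (Amigo2), -0.68 to 0.51 (Cd109), -0.96 to 0.10 (Emp1), -0.30 to 0.14 (Tm4sf1) and -0.11 to 0.96 (Cd14). The cause was not tested. The depth of library 16 limits every member under 1 CPM.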

Other observations

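A pair of genes of the same published classes that are not among the 33 members varied widely between libraries of 1 genotype. S100a10, an A2 gene whose product binds annexin A2, stood at 7.10, 5.49 and 9.90 CPM in libraries 14, 16 and 18 (knockout) against 39.99, 8.29 and 70.2 CPM in libraries 13, 15 and 17 (wild type) (log2 fold change -2.36, SE 0.65, edgeR adjusted p of 1.00). Wild-type libraries 13 and 17 were high, while wild-type library 15 lay within the knockout range. H2-T23, an A1 gene and nonclassical MHC class I gene that was named after its values were seen, stood at 0.408, 0.282 and 3.52 CPM in libraries 14, 16 and 18 (knockout) against 3.32, 0.355 and 6.01 CPM in libraries 13, 15 and 17 (wild type). Its libraries 18, 13 and 17 were high and libraries 14, 16 and 15 low, across both genotypes. Reads shared with other MHC class I genes make its count uncertain. The ribosomal RNA share was 0.892%, 0.939% and 1.75% in libraries 18, 13 and 17. In libraries 14, 16 and 15 it was 35.6%, 45.1% and 7.45%. These shares were looked up after the values of H2-T23 were seen, and their part was not tested. H2-D1, a classical MHC class I gene of the A1 class, measured 40.5, 54.4 and 29.4 CPM (knockout) against 36.2, 37.9 and 14.0 CPM (wild type), with the lowest level in wild-type library 17. Complement C3, a widely used marker of A1 astrocytes that is not a member and was also named after its values were seen, had 1, 7 and 3 reads in the knockout and 32, 6 and 0 in the wild type.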
